A study of Caenorhabditis elegans with 14 samples.

Results

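The comparison described here is that of daf-2 animals grown on daf-16 RNAi with daf-2 animals grown on empty vector, without heat shock. Its members were chosen by their labels: 2 libraries of whole worms of strain rrf-3(pk1426);daf-2(e1368) on the daf-16 RNAi clone (daf-16i) and 2 of the same strain on empty vector (rIIS-C, for reduced insulin/IGF-1 signaling control), 4 of the 14 libraries of the series. All animals grew at 20 °C, and RNAi began in the first larval stage. The labels give the stage at collection as L4 to young adult, whereas the study's methods describe growth up to young or early gravid adults. Both groups carry the rrf-3(pk1426) mutation, which makes worms hypersensitive to RNAi, and the daf-2(e1368) allele, a moderate loss of the insulin receptor, so that the only labelled difference between them is the RNAi clone. The control strain rrf-3(pk1426) on empty vector at 20 °C (C, 2 libraries), and the double mutant on skn-1 RNAi at 20 °C (skn-1i, 2 libraries) were used only for reference. The strain crossed for this work and the RNAi clone are each a single source, and RNA came from pooled whole animals, so that fewer cells of a type and less RNA per cell cannot be told apart.

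DAF-16 is the single FOXO transcription factor of the worm. When the insulin receptor DAF-2 is active, a kinase cascade phosphorylates DAF-16 and holds it in the cytoplasm. When signaling is reduced, DAF-16 enters the nucleus, and daf-2 mutants then live long, resist stress and store fat in a manner that needs DAF-16. Its known output includes stress defence genes, such as the superoxide dismutase sod-3, that need DAF-16 to be expressed, and genes such as dod-24 that are held low when DAF-16 is active. In this comparison a gene higher in rIIS-C than in daf-16i therefore lost transcript on daf-16 RNAi (called activated, after the usage of the study), and a gene lower in rIIS-C gained transcript on daf-16 RNAi (called repressed).

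Exon reads were 4681170 and 12726797 in rIIS-C and 6751688 and 11142450 in daf-16i, within the range of 4681170 to 22767301 over the 14 libraries. All levels are counts of exon reads scaled to a common library size (CPM), with library sizes adjusted by trimmed means (TMM), and fold changes are log2 values of rIIS-C over daf-16i with their standard error (SE). Adjusted p values come from edgeR's quasi-likelihood test over 13892 genes, and a gene is said to change only at an adjusted p under 0.05. In each group 1 library had few exon reads across exon junctions (9.691% in rIIS-C, 9.892% in daf-16i) and the other many (26.34% and 23.04%), a technical split that pairs rIIS-C 1 with daf-16i 1 and rIIS-C 2 with daf-16i 2. The libraries of rIIS-C agreed less well with each other than those of daf-16i: the chi-square of their counts over genes, per degree of freedom, was 33.1 and 5.72. Markers of intestine, hypodermis, body wall muscle, neurons and germline were all read, as whole worms should show. The summed CPM of the intestine markers, for example, ran from 2602 to 4144 over the 4 libraries.

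Reads of daf-16 itself (chromosome I, 10750498 to 10775050 in assembly WBcel235), the target of the RNAi, were 91.9 and 53.5 CPM in rIIS-C, 55.3 and 43.5 in daf-16i and 76.3 and 68.2 in C. The daf-16i libraries were lower than their rIIS-C partners in both read pairs, but the groups overlapped, since rIIS-C 2 lay just under daf-16i 1. Its log2 difference was 0.55 with an SE of 0.26 and an edgeR adjusted p of 0.283, short of the threshold, and it passed without rIIS-C 2 (0.90, adjusted p = 0.0442). Counts per gene cannot tell worm transcript from any RNA of the same sequence that the RNAi bacteria carry, and the loss of DAF-16 protein or activity was not measured here, so these reads do not give the strength of the knockdown. The study reports efficient knockdown by its RNAi clones in each replicate, measured by quantitative PCR. Its figure legend states the size for hsf-1 and skn-1 but not for daf-16. Reads of daf-16 outside its annotated exons showed a wider gap, at 12.26 and 9.048 CPM in rIIS-C against 4.78 and 4.57 in daf-16i, with no overlap. Their log2 difference was 1.29 (SE 0.31, edgeR adjusted p = 0.223 over the 2286 genes tested on such reads) and did not reach the threshold. On such reads 1 of the 2286 genes (0.0437%) passed, the non-coding RNA tts-1, and 169 were under an unadjusted p of 0.05. The receptor gene daf-2 had 115 and 48.2 CPM in rIIS-C and 64.5 and 54.01 in daf-16i and overlapped (log2 fold change 0.45, SE 0.40, edgeR adjusted p = 0.636). Of the 35 genes of the insulin pathway and its DAF-16 regulators, 35 were tested and 0 passed edgeR's test, while 5 were under an unadjusted p of 0.05 and 0 passed with DESeq2. Their median log2 fold change was 0.13, against 0.03 over all genes tested, and 2 of them passed with the junction-share batch as a block and 1 without rIIS-C 1.

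Across all genes, 843 of 13892 (6.07%) changed on daf-16 RNAi. Of these 386 fell (2.78% of the genes tested) and 457 rose (3.29%). Among the genes that fell, 141 had a fitted difference of at least 4-fold and the median log2 fold change was 1.58. Among those that rose, 92 reached 4-fold and the median was −1.21. The median level of the genes that fell was 11.3 CPM in rIIS-C and 3.79 in daf-16i. For those that rose it was 14.1 and 32.5. CPM is not per length, and the median exon length was 986 bases for the former and 1140 for the latter. Of the 1426 tested genes that averaged under 1 CPM over both groups, 40 fell and 7 rose (3.3% called). Of the 1446 at 100 CPM or more 22 fell and 76 rose (6.78% called). No exon read was found in either daf-16i library for 13 of the called genes and in either rIIS-C library for 2, so their fitted fold changes have no fixed size. Of the 386 genes that fell 385 are annotated as protein-coding and 1 as a pseudogene, and all 457 that rose are protein-coding. By chromosome, the share of tested genes that changed ran from 3.39% on chromosome I and 3.76% on III to 7.62% on X and 9.5% on V.

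**Figure D1:**
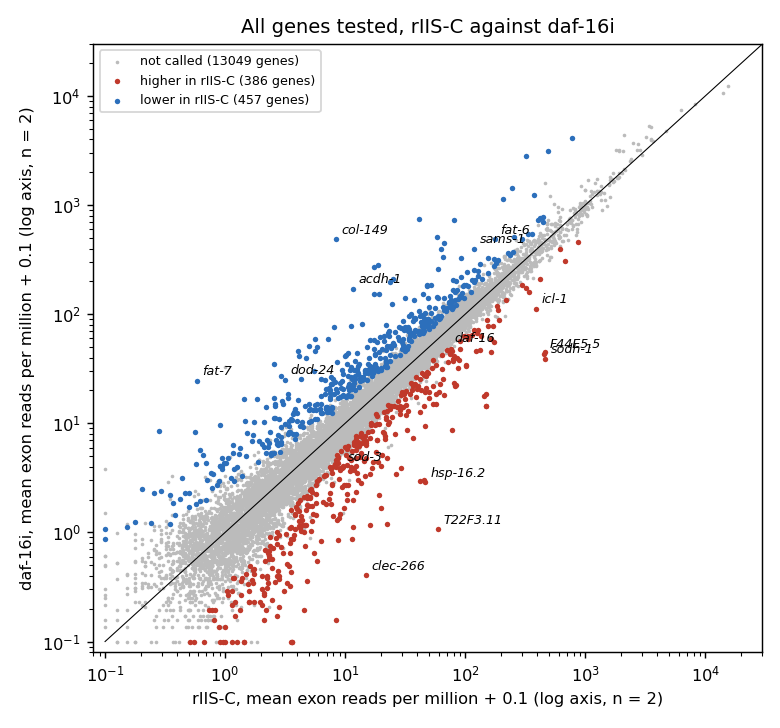
Mean CPM in rIIS-C (x axis, n = 2) and daf-16i (y axis, n = 2) for the 13892 genes tested, both on log axes after adding 0.1. Red points are the 386 genes that fell on daf-16 RNAi, blue points the 457 that rose, and grey points did not pass the test; daf-16 itself lies among the grey points, and col-149 and T22F3.11 lie farthest from the line of equal levels on these axes.

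The count depended on the libraries used. It was 400 without daf-16i 1, 317 without daf-16i 2, 1128 without rIIS-C 1 and 987 without rIIS-C 2, and 1525 when the junction-share batch entered the model as a block. The 1525 genes include 843 of the 843, which are 55.3% of them. All 843 kept their sign in both read pairs, which the choice of genes by their test favours, so it is given as a description. In the 4 libraries alone 317 genes passed. For many gene lists whose count moved by more than 1.5-fold, values without 1 library are given below. Their order is daf-16i 1, daf-16i 2, rIIS-C 1 and rIIS-C 2. Not every such count has them, so a count given without them, above all a count of 1, need not be stable. The count with the batch as a block is called the block count.

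**Figure D2:**
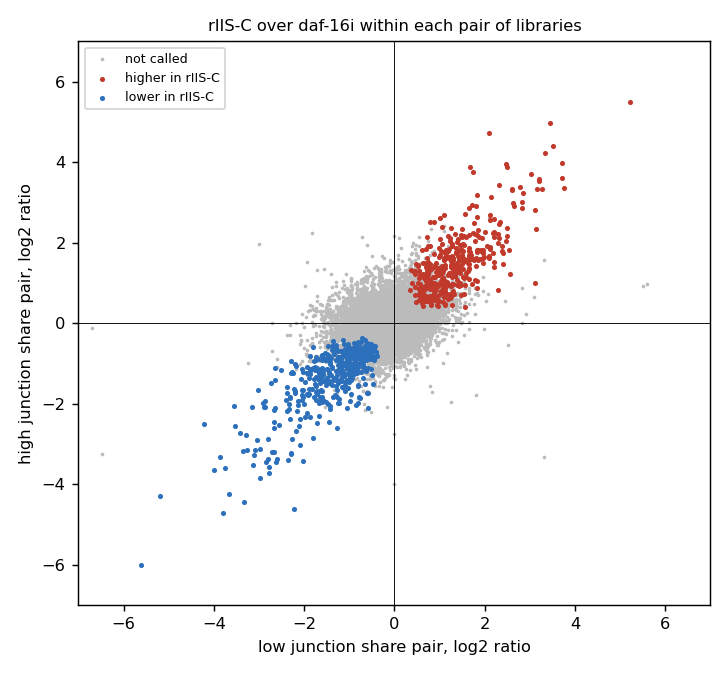
Log2 ratio of rIIS-C over daf-16i, after adding 0.5 CPM, in the pair of libraries with a low junction share (x axis) and the pair with a high share (y axis), 1 point per gene tested. The 386 genes called higher in rIIS-C (red) lie in the upper right quadrant and the 457 called lower (blue) in the lower left.

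The study followed sod-3 and dod-24 by quantitative PCR as an activated and a repressed target of DAF-16. The primers are shown because they fix which transcripts those names mean; the values below come from sequencing. They are given 5′ to 3′ in lower case.
sod-3 forward: tggacactattaagcgcgac
sod-3 reverse: atatcccaaccatccccagc
dod-24 forward: tgtccaacacaacctgcatt
dod-24 reverse: tgtgtcccgagtaacaacca

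In sequencing, sod-3 (chromosome X, 17092768 to 17094097), a mitochondrial manganese superoxide dismutase, had 7.39 and 11.6 CPM in rIIS-C and 4.08 and 3.85 in daf-16i, and C lay between at 5.29 and 6.29. It fell on daf-16 RNAi, with a log2 fold change of 1.31 (SE 0.27, adjusted p = 0.0133), edgeR. Few reads carry this call, 41 and 224 in rIIS-C and 35 and 54 in daf-16i, and it was lost without daf-16i 1 (adjusted p = 0.0906), daf-16i 2 (0.148) or rIIS-C 2 (0.121). The repressed target dod-24 (chromosome IV, 12940175 to 12941352) had 3.06 and 3.10 CPM in rIIS-C and 24.1 and 25.9 in daf-16i, with C at 14.3 and 16.6. Its groups were far apart and it rose on daf-16 RNAi (log2 fold change −3.01 (SE 0.24, adjusted p = 4.19e-05), edgeR).

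Genes known from the field to depend on DAF-16 were read as 2 lists, one for each direction. The lists come from earlier work of which some used daf-2 animals. They overlap with lists below, where hsp-16.2, hsp-16.41, lys-7, sodh-1, fat-7 and acdh-1 count again. Of 36 listed genes known to be raised by DAF-16, 33 were tested, 21 fell on daf-16 RNAi (63.6%) and 0 rose, with a median log2 fold change of 1.25. Without either daf-16i library the count was 13, and all 33 were higher in rIIS-C. Of 21 genes known to be lowered by DAF-16, 19 were tested, 9 rose and 1 fell. The one that fell was nuc-1, a DNase II, with 115 and 96.8 CPM in rIIS-C and 58.2 and 59.7 in daf-16i (log2 fold change 0.84 (SE 0.15, adjusted p = 0.00452), edgeR), a call lost without daf-16i 1 (adjusted p = 0.071) or daf-16i 2 (0.0656). Of the 10 dod genes, named for lying downstream of daf-16, 6 rose and 1 fell (without 1 library 1, 0, 1 and 1, block count 2). Among those that rose were dod-17 (3.79 and 2.74 CPM in rIIS-C, 17.96 and 18.7 in daf-16i), dod-19 (62.5 and 54.6 and 142 and 148.5) and dod-22 (6.67 and 5.64 and 15.05 and 14.8), with log2 fold changes of −2.56, −1.31 and −1.31. Below the level set for naming genes, dod-21 had 2 and 0 exon reads in rIIS-C against 95 and 78 in daf-16i, and dod-3, the gene that fell, 23 and 128 against 7 and 4; both were chosen after their values were seen.

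Among genes of at least 10 CPM in 1 of the groups, the one that fell most was T22F3.11 (chromosome V, 3612458 to 3614515), which went from 61.8 and 57.1 CPM in rIIS-C to 1.17 and 0.785 in daf-16i, where C stood at 0.962 and 0.376. Its log2 fold change was 5.96 (SE 0.32, adjusted p = 1.50e-06), edgeR. Next came clec-266, a C-type lectin, with 10.1 and 19.6 CPM against 0.467 and 0.143, and the chitinase gene cht-1 with 21.3 and 23.1 against 1.17 and 0.999 (log2 fold changes 5.77 and 4.37, SE 0.52 and 0.33, adjusted p = 5.09e-05 and 1.48e-05, edgeR). The lysozyme lys-7, an antibacterial enzyme of the intestine, had 43.98 and 39.4 CPM in rIIS-C and 2.92 and 2.78 in daf-16i. Its libraries agreed closely within each group, and the groups were far apart (log2 fold change 3.87 (SE 0.22, adjusted p = 1.91e-06), edgeR).

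The rest of the 12 genes that fell most at this level hold 3 heat shock genes, described below, another lectin and enzymes and a transporter. The alcohol dehydrogenase sodh-1 had 530.3 and 402 CPM in rIIS-C and 39.1 and 38.7 in daf-16i (log2 fold change 3.58 (SE 0.19, adjusted p = 1.50e-06), edgeR). The flavin monooxygenase fmo-2 had 16.8 and 23.2 CPM against 1.28 and 1.85, and pgp-1, a P-glycoprotein drug transporter, 12.98 and 10.1 against 1.05 and 0.999. Reads of F17B5.1 were 12.1 and 19.8 CPM in rIIS-C and 1.05 and 1.07 in daf-16i, and those of clec-60 14.4 and 8.12 and 1.17 and 0.357. For all 12 genes both rIIS-C libraries lay above both daf-16i libraries, as the rule for naming them required, and the 12 genes lie on 5 chromosomes.

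Of the 12 genes that rose most among those of at least 10 CPM, 8 are cuticle collagens. The largest change of the 12 was that of col-149 (chromosome V, 10291794 to 10292812), from 9.01 and 7.45 CPM in rIIS-C to 464 and 515 in daf-16i, with 438 and 474 in C (log2 fold change −5.92 (SE 0.21, adjusted p = 8.57e-08), edgeR). The stearoyl-CoA desaturase fat-7 (chromosome V, 7151447 to 7153131), which makes oleic acid, had 0.180 and 0.776 CPM in rIIS-C and 24.5 and 24.6 in daf-16i. It was thus close to absent from rIIS-C, and C stood higher still at 43.5 and 41.3 (log2 fold change −5.28 (SE 0.39, adjusted p = 1.19e-05), edgeR). The acyl-CoA dehydrogenase acdh-1 (chromosome I, 6497453 to 6499464), which acts in branched-chain amino acid and propionate breakdown, had 10.3 and 12.98 CPM in rIIS-C and 172 and 169.9 in daf-16i (log2 fold change −3.85 (SE 0.22, adjusted p = 1.92e-06), edgeR). Y49G5A.1 rose from 1.802 and 3.15 to 33.2 and 35.96 CPM and T20D4.5 from 1.44 and 1.24 to 18.2 and 15.1. The other collagens of the 12 were col-133, col-7, col-117, col-126, col-150, col-168 and col-180, with log2 fold changes from −4.22 to −3.36.

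**Figure D3:**
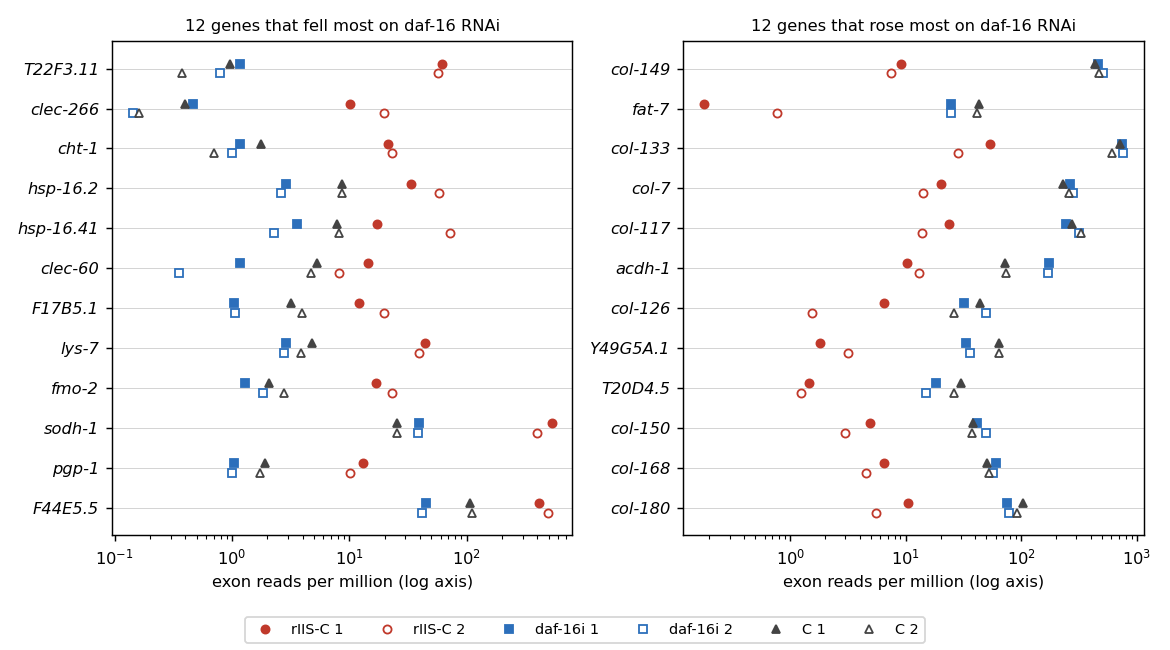
CPM (log axes) in each library of rIIS-C (red circles), daf-16i (blue squares) and C (dark triangles) for the 12 genes that fell most and the 12 that rose most on daf-16 RNAi among genes of at least 10 CPM; filled symbols are replicate 1 and open symbols replicate 2. Both rIIS-C symbols lie to the right of the daf-16i symbols on the left panel and to their left on the right panel. In clec-60, F17B5.1, F44E5.5, acdh-1 and Y49G5A.1 the daf-16i and C levels differed at an adjusted p under 0.05.

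Small heat shock proteins hold unfolded proteins in solution and are strongly induced by heat, to which no animal of this comparison was exposed. Of 16 genes, 15 were tested, 8 fell (53.3%, against 2.78% of all genes) and 0 rose, 4 were lower in rIIS-C, and the median log2 fold change was 1.63. hsp-16.2 had 33.9 and 58.6 CPM in rIIS-C and 2.92 and 2.64 in daf-16i, and hsp-16.41 17.1 and 72.9 and 3.62 and 2.28 (log2 fold changes 4.08 and 4.01, SE 0.38 and 0.60, edgeR adjusted p = 6.52e-05 and 0.00187). In each hsp-16 gene rIIS-C 2 was higher than rIIS-C 1, and both were above both daf-16i libraries. hsp-16.1 had 87.8 and 209 CPM in rIIS-C and 15.4 and 13.1 in daf-16i (log2 fold change 3.40 (SE 0.38, adjusted p = 2.11e-04), edgeR). The near-identical genes hsp-16.1 and hsp-16.11 share reads and count as 1 observation, and so do hsp-16.48 and hsp-16.49; counting unique reads only, 4 of the list fell. The embryonic small heat shock gene sip-1 had 1089 and 648 CPM in rIIS-C and 449 and 477 in daf-16i (log2 fold change 0.91 (SE 0.21, adjusted p = 0.0257), edgeR), and its call was lost without daf-16i 1 (adjusted p = 0.211), daf-16i 2 (0.163) or rIIS-C 1 (0.0512).

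No list of Hsp70 genes was read, but F44E5.5, an Hsp70 gene among the 12 that fell most, had 417 and 498 CPM in rIIS-C, 45.1 and 41.5 in daf-16i and 107 and 110.5 in C (log2 fold change 3.40 (SE 0.19, adjusted p = 1.50e-06), edgeR). It shares reads with its inverted copy F44E5.4, which gave 442 and 488 and 47.8 and 41.7 CPM, so the pair is 1 observation, and F44E5.5 had too few unique reads to be tested alone. hsp-70 had 60.4 and 96.1 CPM in rIIS-C and 8.40 and 8.85 in daf-16i (log2 fold change 3.19 (SE 0.34, adjusted p = 1.67e-04), edgeR). Of the constitutive chaperones, hsp-1 had 2939 and 1754 CPM in rIIS-C and 2606 and 2518 in daf-16i (log2 difference −0.13, SE 0.21, edgeR adjusted p = 0.833), and hsp-90 had 2767 and 2036 and 2687 and 2634 (−0.15, SE 0.17, edgeR adjusted p = 0.731). In both the groups overlapped. The gene of the heat shock factor, hsf-1, had 77.3 and 56.0 CPM in rIIS-C and 53.4 and 55.2 in daf-16i (log2 fold change 0.29, SE 0.17, edgeR adjusted p = 0.432). F44E5.4, hsp-70, hsp-1, hsp-90 and hsf-1 were chosen after their values were seen. Of 20 genes of protein folding in the endoplasmic reticulum, 2 rose, ckb-2 and pdi-6, and 0 fell. The 2 became 1, 1, 4 and 2 without 1 library, and pdi-6 lost its call without daf-16i 1 (adjusted p = 0.0615) or daf-16i 2 (0.148). Of 14 genes of the mitochondrial stress response 0 passed edgeR's test, 2 were under an unadjusted p of 0.05 and 0 passed with DESeq2, while 2 rose without rIIS-C 1 and 2 with the batch as a block.

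Antioxidant and metal defence changed in a few genes. Of 24 tested genes of superoxide, peroxide and thiol defence 3 fell and 1 rose. Beside sod-3, the catalases ctl-1 and ctl-2 fell, with 18.2 and 25.6 CPM in rIIS-C and 11.1 and 10.6 in daf-16i for ctl-1 and 24.5 and 23.4 and 12.597 and 15.8 for ctl-2 (log2 fold changes 1.04 and 0.74, edgeR adjusted p = 0.0347 and 0.0197). The 3 genes that fell all lost their call without daf-16i 1 or daf-16i 2, and ctl-1, one of a tandem set of catalase genes close in sequence, also on unique reads (adjusted p = 0.845). The methionine sulfoxide reductase msra-1 rose, from 18.02 and 27.97 CPM to 68.5 and 72.2 (log2 fold change −1.58 (SE 0.19, adjusted p = 3.76e-04), edgeR). Of 13 tested metallothioneins, ferritins and cadmium-responsive genes 2 fell and 1 rose (block count 2). The count that fell depended on the library left out. The gene that rose was cdr-7, from 7.75 and 7.65 to 24.3 and 21.6 CPM (log2 fold change −1.57 (SE 0.17, adjusted p = 1.72e-04), edgeR). Of the metallothioneins, which bind zinc and cadmium, mtl-2 had 9.73 and 14.6 CPM in rIIS-C and 1.75 and 2.71 in daf-16i (log2 fold change 2.44 (SE 0.42, adjusted p = 0.00448), edgeR), a call lost without daf-16i 1 (adjusted p = 0.0537) or rIIS-C 2 (0.0507). mtl-1, below the level for naming, had 11 and 66 reads in rIIS-C against 0 and 3 in daf-16i. The glutathione S-transferase gst-4 overlapped between groups, with 12.98 and 28.6 CPM and 18.3 and 18.3 (log2 difference 0.24, SE 0.27, edgeR adjusted p = 0.732). Its log2 difference was 0.642 without rIIS-C 1 and −0.497 without rIIS-C 2. Of 36 tested genes of its family 1 fell (block count 3) and 0 rose (block count 1). The count of the family that fell also depended on the library left out.

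Innate immunity genes changed in both directions. C-type lectins are secreted sugar-binding proteins of which the worm has a large family. Of 107 tested, 18 fell (16.8%, against 2.78% of all genes) and 6 rose (5.61%, against 3.29%). Their median log2 fold change was 0.14. The 18 became 9, 9, 15 and 14 without 1 library, and the 6 became 4, 3, 7 and 4 (block count 12). Beside clec-266 and clec-60, clec-222 fell from 37.1 and 54.8 to 10.1 and 8.42 CPM (log2 fold change 2.33 (SE 0.20, adjusted p = 3.21e-05), edgeR), while clec-209 rose from 6.13 and 4.81 to 43.2 and 48.2 (−3.108 (SE 0.22, adjusted p = 9.82e-06), edgeR). Of 264 lectin genes, 63 had no read in any of the 4 libraries. Of 12 tested lysozymes, lys-7 fell and lys-4 rose, the latter from 44.3 and 52.7 CPM to 86.5 and 92.5 (log2 fold change −0.88 (SE 0.17, adjusted p = 0.00909), edgeR), a call lost without daf-16i 1 (adjusted p = 0.0531) or daf-16i 2 (0.0989), and 3 rose with the batch as a block. Of 53 tested antimicrobial peptides, saposins and thaumatins 4 fell (7.55%) and 9 rose (16.98%). Without 1 library 2, 2, 7 and 3 fell (block count 8) and 6, 3, 6 and 6 rose. The saposin-like spp-2 fell from 45.8 and 68.8 to 15.3 and 14.9 CPM, and the peptide genes nlp-26 and fipr-21 rose, from 7.21 and 13.1 to 39.3 and 45.0 and from 33.2 and 40.9 to 125 and 142. F-box and MATH-BTB genes, which encode adaptors of ubiquitin ligases and are a large and fast-evolving family, had 12 of 180 tested genes falling (6.67%) and 1, fbxa-72, rising. Their median log2 fold change was 0.40, and the 12 became 6, 3, 14 and 4 without 1 library (block count 20).

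The glyoxylate shunt and gluconeogenesis let the worm make sugar from fat, and were read in 1 list with trehalose and desiccation genes. Of 22 genes tested 6 fell (27.3%) and 1 rose, and the 6 became 3 without daf-16i 1 or daf-16i 2. Only 1 of the 6, icl-1, is a glyoxylate enzyme and 1, pck-1, a gluconeogenic one. The glyoxylate enzyme icl-1 had 427 and 358 CPM in rIIS-C and 109 and 116 in daf-16i (log2 fold change 1.8001 (SE 0.16, adjusted p = 4.10e-05), edgeR). The gluconeogenic phosphoenolpyruvate carboxykinase pck-1 had 349.7 and 327 and 148.9 and 169.7 (1.09 (SE 0.15, adjusted p = 0.0012), edgeR), and lea-1, a desiccation protein, 902 and 467 and 324 and 287. The lea-1 call was lost without daf-16i 1 (adjusted p = 0.114) or daf-16i 2 (0.191). The trehalose-6-phosphate synthase tps-1, the aquaporin aqp-1 and sodh-1 complete the 6. Of 38 genes of glycolysis and the citrate cycle 0 passed edgeR's test (median log2 fold change 0.08, 7 under an unadjusted p of 0.05, 2 called by DESeq2). Without rIIS-C 2, 4 of them fell, and without rIIS-C 1, 1 rose. Of 46 genes of oxidative phosphorylation 0 passed (median 0.10, 2 under an unadjusted p of 0.05, 0 called by DESeq2).

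Of 16 fatty acid desaturases and elongases, 5 rose (31.2%, against 3.29% of all genes) and 0 fell, and the other 11 did not pass. After fat-7, its near paralogue fat-6 rose from 172 and 182 to 471 and 498 CPM (log2 fold change −1.45 (SE 0.14, adjusted p = 9.73e-05), edgeR). The elongases of branched-chain fatty acids elo-5 and elo-6 had 193 and 322 and 345 and 464 CPM in rIIS-C against 505 and 509 and 714 and 734 in daf-16i (log2 fold changes −0.97 and −0.84, edgeR adjusted p = 0.0306 and 0.0146), and elo-2 was the fifth. The calls of elo-5 and elo-6 were lost when either daf-16i library was left out (adjusted p from 0.0879 to 0.164), that of elo-5 also without rIIS-C 1 (0.0828), and the list's count became 2 without either daf-16i library. Fatty acid oxidation had 5 of 64 tested genes falling and 5 rising (7.81% each). Without 1 library 3, 1, 7 and 7 fell (block count 12) and 3, 3, 4 and 5 rose. The acyl-CoA synthetase acs-2, which feeds mitochondrial oxidation, fell from 182 and 148.9 to 46.0 and 43.9 CPM (log2 fold change 1.88 (SE 0.17, adjusted p = 4.62e-05), edgeR), whereas acdh-2 rose from 2.34 and 2.53 to 17.6 and 16.12 (−2.76 (SE 0.20, adjusted p = 1.05e-05), edgeR) and acox-1.5, a peroxisomal oxidase, from 10.3 and 13.8 to 36.7 and 37.03 (−1.58 (SE 0.16, adjusted p = 1.31e-04), edgeR). Among 33 tested lipases and lipid binding proteins 5 fell and 4 rose. Of the lysosomal lipases, lipl-1 fell from 9.01 and 11.6 to 1.98 and 2.28 CPM and lipl-2 from 23.3 and 28.7 to 6.65 and 9.20 (log2 fold changes 2.28 and 1.71, edgeR adjusted p = 1.12e-04 and 2.90e-04). The fatty acid and retinol binding proteins far-3 and far-7 fell too, and lbp-7, lips-10, lips-15 and far-5 rose. Without daf-16i 2 the last 4 all lost their calls (adjusted p from 0.0514 to 0.16).

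The 6 vitellogenins, the yolk proteins made in the adult intestine, differed widely between the rIIS-C libraries, and 0 passed edgeR's test (1 was under an unadjusted p of 0.05, and DESeq2 called 1). vit-2 read 20579 and 7569 CPM in rIIS-C and 10885 and 10476 in daf-16i, and vit-6 23349 and 7465 and 12917 and 11871. vit-3 read 2950.4 and 1286 and 4743 and 4108, vit-1 2837 and 957 and 3383 and 2878, vit-4 5051 and 2036 and 5571 and 4888, and vit-5 8829.6 and 3628 and 7882 and 7116. In each, rIIS-C 1 was more than 2-fold above rIIS-C 2, and each daf-16i library lay between them or above both. The median log2 fold change was −0.41. The direction of some depended on the libraries used. Over the 14 alternatives the log2 fold change ran from −0.502 to 0.944 for vit-2, from −0.736 to 0.911 for vit-6 and from −1.05 to 0.233 for vit-5. It stayed negative for vit-1, vit-3 and vit-4. With the batch as a block vit-1 and vit-3 passed as higher in daf-16i (edgeR adjusted p = 0.0416 and 0.0062).

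Of 44 tested genes of amino acid breakdown and one-carbon metabolism 11 rose (25%) and 0 fell, 33 were lower in rIIS-C and 11 higher, and the median log2 fold change was −0.38. The 11 became 6, 7, 13 and 10 without 1 library (block count 18), where 0, 0, 1 and 2 genes fell (block count 1). Beside acdh-1, the S-adenosylmethionine synthetase sams-1 rose from 125 and 113 to 392.4 and 408 CPM (log2 fold change −1.75 (SE 0.14, adjusted p = 2.59e-05), edgeR). The kynureninase kynu-1, a step of tryptophan breakdown, rose from 76.1 and 83.7 to 206 and 206 (−1.37 (SE 0.13, adjusted p = 9.73e-05), edgeR), and alh-6, a dehydrogenase of proline breakdown, from 60.7 and 57.1 to 124 and 155 (−1.25 (SE 0.19, adjusted p = 0.00181), edgeR). The libraries within a group differed little in these genes, and the groups were apart.

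Among detoxification enzymes, glutathione S-transferases are given above. Of 55 tested UDP-glucuronosyltransferases, which couple sugars to small molecules, 15 rose (27.3%) and 1 fell, and the median log2 fold change was −0.37. The 15 became 9 without daf-16i 1 or daf-16i 2, and the block count of genes that fell was 4. ugt-16 rose from 7.21 and 7.03 to 63.1 and 56.2 CPM (log2 fold change −3.07 (SE 0.17, adjusted p = 1.50e-06), edgeR), ugt-4 from 3.24 and 5.12 to 26.8 and 23.5 (−2.50 (SE 0.21, adjusted p = 3.36e-05), edgeR) and ugt-41 from 5.77 and 14.2 to 41.4 and 40.5 (−1.94 (SE 0.35, adjusted p = 0.00593), edgeR). Cytochrome P450 genes of the first phase had 4 of 52 falling and 4 rising (7.69% each), and without 1 library 3, 2, 4 and 4 fell and 2, 1, 3 and 3 rose. cyp-34A9 and cyp-32B1 fell, from 13.2 and 24.1 to 4.32 and 4.35 and from 15.5 and 18.3 to 3.73 and 4.92 CPM, and cyp-33A1 rose from 5.23 and 7.13 to 17.8 and 17.4. Of 166 tested nuclear hormone receptors 5 fell (3.01%, close to the 2.78% of all genes), among them nhr-21 (55.7 and 77.1 to 19.6 and 16.5 CPM) and nhr-17 (47.2 and 74.5 to 19.2 and 19.3), and 1 rose (0.602%). Without 1 library 2, 2, 7 and 3 fell (block count 9) and 0, 0, 1 and 4 rose (block count 3).

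Of the lists read, cuticle collagens held the most genes that rose. Of 159 tested, 39 rose (24.5%, against 3.29% of all genes) and 1, col-116, fell, and 137 of the 159 were lower in rIIS-C, with a median log2 fold change of −0.65. The 39 became 75 without rIIS-C 1. The leading genes were named by a rule that required groups not to overlap, so the order of their libraries is a description only. Reads of col-133 were 53.7 and 28.4 CPM in rIIS-C and 748 and 760 in daf-16i. Those of col-7 were 20.4 and 14.1 and 264 and 278, and those of col-150 4.87 and 2.999 and 41.8 and 49.7. Close relatives share reads in this family. On unique reads col-117 and col-168 did not pass (adjusted p = 0.545 and 0.266) and col-126 could not be tested, while 31 of the list rose. Collagen transcripts come and go with each molt, so the molting genes were read beside them: of 29 tested 2 rose and 0 fell, with a median of −0.32, and the 2 became 0, 0, 3 and 1 without 1 library. The part of stage in the collagen result was not tested.

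**Figure D4:**
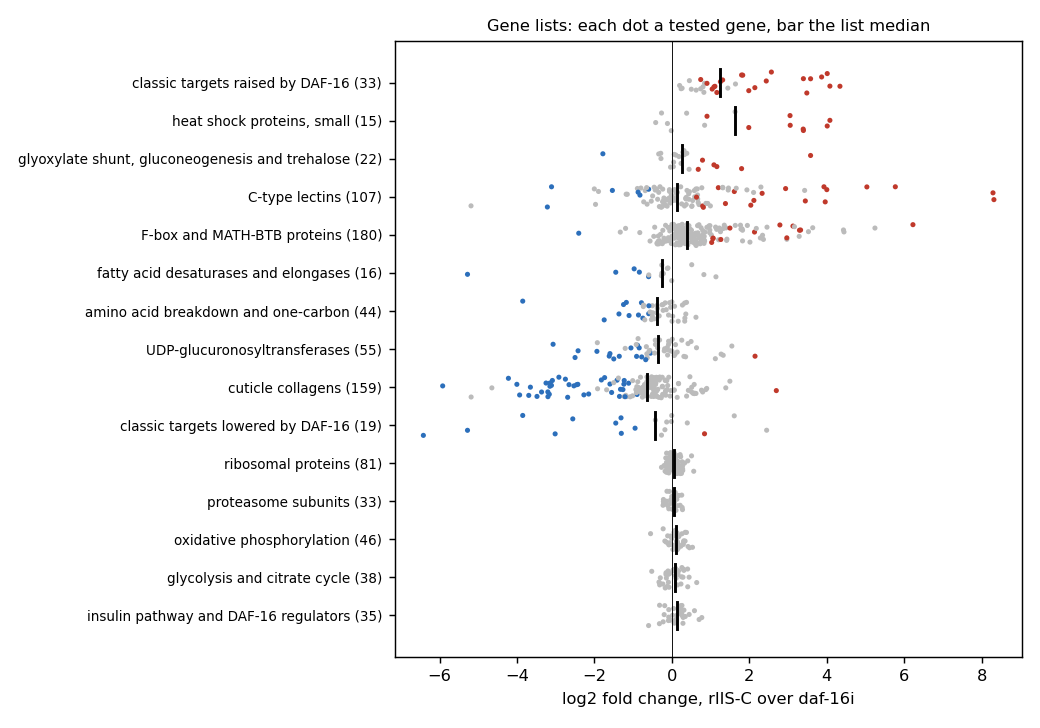
Log2 fold change of rIIS-C over daf-16i (x axis) of every tested gene in 15 of the gene lists (rows, with the number tested); red dots fell and blue dots rose on daf-16 RNAi at an adjusted p under 0.05, grey dots did not pass, and black bars are list medians. The medians of small heat shock proteins (1.63) and genes known to be raised by DAF-16 (1.25) lie to the right, that of cuticle collagens (−0.65) to the left, and ribosomal, proteasome and oxidative phosphorylation genes gather near 0 with 0 called.

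In the machinery of protein synthesis and turnover few genes changed. Of 81 ribosomal protein genes 0 passed the test, 0 were under an unadjusted p of 0.05 and 0 passed with DESeq2, and their log2 fold changes ran from −0.27 to 0.56 with a median of 0.06, although 2 rose without rIIS-C 1. Of 70 tested translation factors and tRNA synthetases 0 passed (median −0.15, 5 under an unadjusted p of 0.05, 1 called by DESeq2), although 9 rose without rIIS-C 1 and 2 with the batch as a block. Of 33 proteasome subunits 0 passed by edgeR or DESeq2 and 0 were under an unadjusted p of 0.05, with a range of −0.23 to 0.27. Of 28 autophagy genes 2 fell, epg-2 (19.3 and 16.96 CPM in rIIS-C, 5.37 and 5.42 in daf-16i) and sqst-1, the p62 homologue that ferries cargo to autophagosomes (66.7 and 62.4 and 41.9 and 42.7), with log2 fold changes of 1.74 and 0.61; epg-2 did not pass on unique reads (adjusted p = 0.725), and sqst-1 lost its call without daf-16i 1 (adjusted p = 0.195) or daf-16i 2 (0.174). Without rIIS-C 2, 4 of the list fell.

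Signals that act through other cells were also read. Of 40 insulin-like peptide genes only 15 had enough reads to be tested, and 1, ins-19, fell. Of the 15, 13 were higher in rIIS-C and 2 lower. Their median log2 fold change was 0.80, against 0.03 over all genes tested, and 5 were under an unadjusted p of 0.05 by edgeR. Chosen after its value was seen, ins-19 had 36 and 195 exon reads in rIIS-C, 1 and 0 in daf-16i and 1 and 0 in C. Without rIIS-C 1, and with the batch as a block, 2 fell. Of 19 tested genes of TGF-beta and dauer hormone signaling 1 fell (without 1 library 0, 0, 1 and 2, block count 2) and 0 rose, and the ligand daf-7 stayed low, at 1.44 and 1.14 CPM in rIIS-C and 0.350 and 0.785 in daf-16i (log2 fold change 1.02, SE 0.50, edgeR adjusted p = 0.303). Of 52 tested transthyretin-related genes, secreted proteins of mostly unknown role, 3 fell (5.77%) and 5 rose (9.62%), and without 1 library 1, 1, 4 and 1 fell and 3, 3, 5 and 9 rose (block count 8). Leading those that rose was ttr-14, from 38.03 and 58.6 to 178 and 184 CPM (log2 fold change −1.89 (SE 0.19, adjusted p = 9.73e-05), edgeR). Other genes that the study names were asm-3, a sphingomyelinase, with 3.06 and 1.76 CPM in rIIS-C and 0.583 and 0.642 in daf-16i (log2 fold change 1.83 (SE 0.48, adjusted p = 0.0478), edgeR; lost without daf-16i 1, daf-16i 2 or rIIS-C 1, adjusted p = 0.23, 0.268 and 0.106), and sur-5, which rose from 128 and 109 to 257 and 252 (−1.11 (SE 0.15, adjusted p = 7.70e-04), edgeR). The transporter pgp-9 had 32.6 and 22.3 CPM and 31.4 and 36.7, and rpc-2 179 and 102 and 259 and 207. Neither passed (edgeR adjusted p = 0.344 and 0.173). With the batch as a block rpc-2 was higher in daf-16i (edgeR adjusted p = 0.0046) and pgp-9 did not pass (0.195). Without rIIS-C 1 the log2 differences of pgp-9 and rpc-2 were −0.621 and −1.2, and without rIIS-C 2 they were −0.0687 and −0.378.

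Markers of other tissues and stages moved with the comparison in part. Of 9 tested early embryo markers 3 fell, among them sdz-24 from 70.1 and 93.7 to 22.9 and 20.9 CPM (log2 fold change 1.91 (SE 0.21, adjusted p = 1.82e-04), edgeR), and the list's summed level was 109.1 and 131.3 CPM in rIIS-C against 40.1 and 38.9 in daf-16i. In each of these libraries sdz-24 alone made up most of that sum. The 3 became 2, 2, 4 and 2 without 1 library and 7 with the batch as a block. Of 16 oocyte and eggshell markers 0 passed edgeR's test (10 under an unadjusted p of 0.05, 4 called by DESeq2), and 16 were higher in rIIS-C with a median log2 fold change of 0.48. With the batch as a block 4 passed, and without rIIS-C 2, 13. Their sum was 11210 and 6336 CPM in rIIS-C and 6199 and 5926 in daf-16i. Of 12 body wall muscle markers 3 rose, the troponin genes tni-1, unc-27 and tnt-2, and the sum was 4280 and 3025 CPM against 5405 and 5500. Of 89 tested sperm markers 2 rose, msp-49 and msp-65, and the sum was 2982 and 3900 CPM against 4301 and 5105. On unique reads neither passed (edgeR adjusted p = 0.626 and 0.461). Sperm genes that share reads are not separate observations. The muscle count became 1, 1, 8 and 3 without 1 library (block count 6), and the sperm count 1, 0, 0 and 4 (block count 21). Of these 5 genes only tni-1 kept its call when either daf-16i library was left out. By edgeR 0 of 18 germline, 17 neuron, 10 hypodermis and 8 pharynx markers passed (5, 1, 2 and 3 of them under an unadjusted p of 0.05, and 0, 0, 1 and 1 called by DESeq2), and of 10 intestine markers 1, cpr-1, fell (202 and 179.7 to 85.3 and 93.1 CPM), and without rIIS-C 1, 5 rose. Without rIIS-C 2, 4 germline markers fell, and without rIIS-C 1, 2 rose. Of 44 tested histone genes 1, his-24, fell (block count 3) and 0 rose (block count 2). This list took all genes named his and was not limited to replication-dependent histones. The part of cell composition and stage in the results above was not tested.

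Some genes that changed together sat side by side. Of the 386 genes that fell, 73 (18.91%) had as their nearest tested neighbour on either side another gene that fell, and of the 457 that rose 75 (16.411%) had one that rose. Over all genes tested 2.78% fell and 3.29% rose. These are rates per gene and no like baseline, since a neighbour on either side could count. The share of all tested genes with such a neighbour was not worked out. The longest runs held 4 genes. On chromosome V, hsp-16.1, hsp-16.48, hsp-16.49 and hsp-16.11 fell between 9087293 and 9090604. On chromosome IV, dod-22, F55G11.2, F55G11.4 and dod-17 rose between 12965451 and 12978234, while dod-24 starts at 12940175 on the same chromosome. On chromosome X, col-167, col-168, col-169 and col-170 rose between 6323488 and 6332611, and nspc-16, nspc-17, nspc-18 and nspc-19 fell between 14523603 and 14529074. Several of these are tandem copies that share reads, so neighbours are not independent observations.

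Against C, which has a functional insulin receptor, 221 of 13892 genes (1.59%) differed in daf-16i, 53 of them higher and 168 lower. This contrast shares the daf-16i libraries with the one above, so their values are given side by side only. Among the 12 genes that fell most on daf-16 RNAi, 3 ended lower in daf-16i than in C: clec-60 (1.17 and 0.357 CPM against 5.29 and 4.73), F17B5.1 (1.05 and 1.07 against 3.21 and 3.98) and F44E5.5 (45.1 and 41.5 against 107 and 110.5), with log2 fold changes of daf-16i over C of −2.86, −1.76 and −1.33 (edgeR adjusted p = 0.00565, 0.0181 and 0.00266). icl-1 did so too, at 109 and 116 CPM in daf-16i against 234 and 261 in C (−1.14, SE 0.15, edgeR adjusted p = 0.00328). hsp-16.2 was at 2.92 and 2.64 against 8.66 and 8.71, which did not pass (−1.65, SE 0.39, edgeR adjusted p = 0.0644). acs-2 fell on daf-16 RNAi and yet stayed above C, at 46.0 and 43.9 CPM against 14.03 and 17.2 (1.52, SE 0.17, edgeR adjusted p = 0.00111), as did lipl-2 at 6.65 and 9.20 against 3.77 and 3.76 (1.09, SE 0.21, edgeR adjusted p = 0.0264).

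Some genes that rose on daf-16 RNAi went past their level in C. acdh-1 reached 172 and 169.9 CPM in daf-16i against 72.7 and 74.3 in C (log2 fold change of daf-16i over C 1.22, SE 0.19, edgeR adjusted p = 0.00769). ugt-16 reached 63.1 and 56.2 against 31.4 and 28.8 (0.99, SE 0.15, edgeR adjusted p = 0.00545), and dod-19 142 and 148.5 against 81.0 and 86.9 (0.79, SE 0.14, edgeR adjusted p = 0.0119). Among genes chosen after their values were seen, B0024.4, next to col-149 and col-150 on chromosome V, rose from 4.69 and 5.17 CPM in rIIS-C to 52.6 and 50.5 in daf-16i, with C at 10.4 and 11.3 (2.24, SE 0.16, edgeR adjusted p = 1.16e-04). Others stopped short of C: Y49G5A.1 reached 33.2 and 35.96 CPM against 63.7 and 64.6 in C (−0.89, SE 0.18, edgeR adjusted p = 0.0342), acdh-2 17.6 and 16.12 against 33.4 and 34.96 (−1.02, edgeR adjusted p = 0.00769), and dod-23 rose only from 26.3 and 34.3 to 54.9 and 63.2 CPM where C stood at 570.4 and 686 (−3.41, SE 0.22, edgeR adjusted p = 6.16e-05). For 9 of the 12 genes that fell most and 10 of the 12 that rose most, the difference from C did not pass the test, which does not show that they were equal.

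The other RNAi group at the same temperature, skn-1i, differed from daf-16i in 8138 genes (58.6%), which is most of the genes tested. The TMM factors were 0.727 and 0.664 in skn-1i and 1.27 and 1.26 in daf-16i. Reads outside exons were 12.8% of the reads on genes in skn-1i 2, against 3.79% in skn-1i 1 and 3.99% and 3.64% in daf-16i. The part of these differences between libraries in the count was not tested. T22F3.11 was at 1767 and 2095 CPM in skn-1i, lys-7 at 391 and 476 and sodh-1 at 3485 and 2829, all above their libraries in rIIS-C, a difference not tested here. Of the 12 genes that fell most on daf-16 RNAi, 11 were higher in skn-1i than in daf-16i and 0 lower. Both sets of 12 were chosen by their levels in the same daf-16i libraries. That choice favours a difference, so the counts for these sets are descriptions only. fat-7 was at 0.435 and 0 CPM and acdh-1 at 0.435 and 1.38 in skn-1i, near or below the rIIS-C libraries, whereas col-133 (656 and 684) and col-7 (349.9 and 419) were near or above their daf-16i level. Of the 12 genes that rose most, 6 were lower in skn-1i than in daf-16i and 2 higher. dod-24 had 0 CPM in both skn-1i libraries, against 24.1 and 25.9 in daf-16i.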

How the data were processed

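Libraries were made from total RNA of whole worms with a TruSeq RNA kit that does not mark strand. Per the submitters' processing notes and the study's methods, base calls were demultiplexed with CASAVA 1.8.2, and the authors mapped single-end reads to WBcel235 in CLC Genomics Workbench. The authors deposited, for each of 46856 genes and each library, raw counts of exon, unique exon, intron and junction reads, and RPKM values (exon reads scaled to exon length and to mapped reads). Exon read counts were used here, and 4 unlabelled value columns were not. Reads that map to several genes are part of these counts, so near-identical genes share reads. The authors state read lengths that differ between libraries. No label gives a library's length, so the share of exon reads across junctions, below or above 17.863%, was used as the batch. Ribosomal RNA and mitochondrial genes carry no exon reads in the deposited counts.

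Counts of 12 libraries, all but the heat-shocked control strain, were fitted in edgeR 4.0.16 with its default expression filter, TMM scaling and 1 coefficient per group, and tested by its quasi-likelihood method, with p values adjusted after Benjamini and Hochberg. The pooled spread rests on 2 libraries per group, and p values measure only the spread between them. Alternatives were RLE scaling, DESeq2 1.42.0, limma 3.58.1 on log2(RPKM + 1), no filter, other sets of libraries, blocks and leave-outs. The code was tested on simulated data. Named genes were daf-16, daf-2 and those named by the study, the 12 genes with the largest change in each direction (adjusted p under 0.05, at least 10 CPM in a group, groups not overlapping), up to 4 called genes per list and direction of at least 10 CPM, and lists of up to 6 genes whole. The 34 gene lists and 10 marker lists, like the comparison itself, were chosen with earlier results of these data known. Gene coordinates and types are from the WBcel235 annotation. Promoter sequences were not analysed here.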

Additional observations from a re-analysis of the deposited data

Results flagged for a closer look

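The non-coding RNA tts-1 (chromosome X, 1504131 to 1504841) has no annotated exon in the deposited tables, so it takes no part in the exon counts, and its reads appear only among those outside exons. There it had 227.8 and 425.3 CPM in rIIS-C (1264 and 8225 reads), 32.1 and 33.5 in daf-16i and 38.8 and 38.1 in C. Both rIIS-C libraries were far above the other 4, and the log2 fold change of rIIS-C over daf-16i was 3.40 (SE 0.37, edgeR adjusted p = 0.00275 over 2286 genes, of which 566 have no annotated exon). The call was kept without rIIS-C 1 (adjusted p = 0.00116) or rIIS-C 2 (0.0106) and lost without daf-16i 1 (0.227) or daf-16i 2 (0.161), while the log2 fold change stayed between 2.9999 and 3.67 over these leave-outs and was 3.26 and 3.46 where the call was lost. It was singled out as a signal in reads that the comparison of exon counts does not use.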

How the results depend on the processing

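The 843 genes became 317 with the 4 libraries alone (146 activated and 171 repressed), 321 with all 14 libraries (167 and 154), and 1525 with the batch as a block (680 and 845). With limma on log2(RPKM + 1) 300 genes were repressed in place of 457, and 408 activated, so that the share of activated genes moved, and the median log2 fold change of all genes was 0.0878 in place of 0.0343. Leaving out 1 library gave 317 to 1128 genes changed, 124 to 484 activated, 193 to 644 repressed and 1522 to 2423 past the p of 0.05 and 1.5-fold thresholds of the study, which 1852 passed. DESeq2, RLE scaling, no filter and unique reads moved the counts by less than 1.5 times. With the label replicate numbers as a block 758 genes changed (340 activated, 418 repressed); those numbers pair the libraries in 10 of 15 pairs of groups only, and the junction-share batch in 15 of 15, by the correlation of deviations from group means over 0.1. The log2 fold change of daf-16 was 0.55, and it passed only without rIIS-C 2 (0.90). Leave-outs gave log2 fold changes of 0.113 to 0.898 for daf-16. Reads outside exons gave 0 to 1 called genes over the leave-outs. Of 109 named genes that passed, 59 passed in all alternatives tested, 0 turned direction in any, and 109 kept it within both batches; 33 and 35 lost the call without daf-16i 1 and daf-16i 2, and 34 with the 4 libraries alone. On unique reads 10 lost it and 5 could not be tested. The choice of these genes by their test favours a shared direction within both batches, so that part is given as a description. Promoter motifs, planned with and without the bases after the start site, were not run. The cause of these shifts was not tested. With 2 libraries per group and 41 to 224 reads in rIIS-C for genes such as sod-3, changes of low transcripts were not detectable here unless large.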
